A study of Homo sapiens with 3 samples.

Results

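The MCM genes encode the replicative DNA helicase and proteins that work with it. Expression was examined for 9 genes, chosen by symbol: MCM2, MCM3, MCM4, MCM5, MCM6 and MCM7, which form the helicase ring, and MCM8, MCM10 and MCMBP. All 9 were found among the 22613 genes listed for each library. The cells were LNCaP-abl, a prostate cancer cell line derived from LNCaP that grows without androgen, kept in medium with charcoal-stripped serum at passages 53 to 60. RNA was sequenced 72 h after lipid transfection with control siRNA (2 libraries, numbered 0 and 1 in the labels) or with pooled siRNAs directed at E2F1 (siE2F1, 1 library). All 3 libraries thus share the line, the serum and the transfection, and the study set out to compare expression with and without E2F1 silencing. The siE2F1 condition is 1 library of 1 line, and whether the controls came from separate cultures is not labelled, so the spread between them may be technical.

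MCM2-7 is loaded onto replication origins in G1 phase as an inactive double ring by the origin recognition complex with CDC6 and CDT1. In S phase the ring joins CDC45 and the GINS complex to form the active helicase, the CMG complex, which unwinds DNA ahead of the polymerases. MCM10 binds this complex and is needed for its activation, MCMBP binds MCM subunits outside chromatin, and MCM8 acts with MCM9 in homologous recombination. E2F factors are textbook activators of MCM genes at the passage from G1 into S phase, and MCM levels are widely used as markers of proliferating cells.

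Promoter windows show the sequence from which these genes are read. RefSeq windows of GRCh38.p14, with 250 bases before and 50 after an annotated start, were matched by symbol. They were used for 7 of the 9 members (10 windows, since MCM7 has 3 starts and MCMBP has 2). None was used for MCM5. None was used for MCM4 either, whose chromosome was left out of the member windows but not of the windows counted for comparison. These counts thus describe the 7 genes with a window and say nothing about the family as a whole. The words TTTCCCGC, TTTGGCGC, TTTGCCGC and TTTCGCGC, which spell common forms of the E2F site, were searched on both strands, and overlapping matches were joined. The windows below belong to the members with the largest differences (MCM3 and MCM10), the smallest (MCM6) and the other ring subunits matched (MCM2 and MCM7, its first window). They are printed 5′ to 3′ on the gene's own strand, with E2F words in capitals. The MCM2 window lies at chr3:127598161-127598460 on the plus strand, MCM3 at chr6:52284693-52284992 on the minus strand and MCM6 at chr2:135876394-135876693 on the minus strand. The MCM7 window lies at chr7:100101348-100101647 on the minus strand and MCM10 at chr10:13161308-13161607 on the plus strand.
MCM3: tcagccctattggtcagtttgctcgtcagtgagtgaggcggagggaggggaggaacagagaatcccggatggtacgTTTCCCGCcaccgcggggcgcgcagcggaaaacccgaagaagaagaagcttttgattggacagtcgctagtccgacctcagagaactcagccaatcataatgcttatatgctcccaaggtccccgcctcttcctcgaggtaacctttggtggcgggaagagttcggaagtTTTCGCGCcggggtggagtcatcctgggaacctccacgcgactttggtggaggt
MCM10: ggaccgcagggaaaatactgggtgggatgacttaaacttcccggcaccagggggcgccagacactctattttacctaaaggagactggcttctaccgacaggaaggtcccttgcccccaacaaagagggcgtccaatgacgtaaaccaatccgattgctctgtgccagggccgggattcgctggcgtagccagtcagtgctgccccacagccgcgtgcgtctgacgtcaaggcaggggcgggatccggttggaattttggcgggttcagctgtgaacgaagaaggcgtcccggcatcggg
MCM6: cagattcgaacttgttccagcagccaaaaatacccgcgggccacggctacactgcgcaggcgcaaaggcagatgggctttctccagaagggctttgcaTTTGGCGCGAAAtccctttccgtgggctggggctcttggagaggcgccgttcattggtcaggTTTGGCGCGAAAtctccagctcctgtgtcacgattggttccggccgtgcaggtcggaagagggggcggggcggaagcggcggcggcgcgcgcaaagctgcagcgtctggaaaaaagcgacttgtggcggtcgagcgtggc
MCM2: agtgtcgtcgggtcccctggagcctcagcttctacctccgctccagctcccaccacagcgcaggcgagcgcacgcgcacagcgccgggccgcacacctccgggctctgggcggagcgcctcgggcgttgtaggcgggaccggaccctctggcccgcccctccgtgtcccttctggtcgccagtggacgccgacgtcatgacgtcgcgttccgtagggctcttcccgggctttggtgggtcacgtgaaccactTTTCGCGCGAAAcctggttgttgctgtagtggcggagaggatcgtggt
MCM7: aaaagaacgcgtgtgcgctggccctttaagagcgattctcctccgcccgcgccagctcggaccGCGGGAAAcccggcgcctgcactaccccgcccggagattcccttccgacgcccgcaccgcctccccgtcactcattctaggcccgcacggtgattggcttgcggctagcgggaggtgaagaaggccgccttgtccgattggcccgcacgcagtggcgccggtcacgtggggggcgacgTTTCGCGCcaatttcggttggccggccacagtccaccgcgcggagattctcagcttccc

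At least 1 E2F word was present for 6 of the 7 matched members and in 6 of the 10 windows, while 3.31% of all 35116 windows of 300 bases held one. MCM6 carried a pair of joined matches, each made of TTTGGCGC on the gene's strand overlapping TTTCGCGC on the other, at bases -152 to -141 and -90 to -79 from the start. MCM3 had one match at -174 to -167 and another across the start at -4 to 4, and MCM7 had matches at -187 to -180 and -9 to -2. In MCM2 the matches of both strands overlapped at bases 3 to 14, just inside the transcript. MCM8 had a match at 27 to 34, and the second MCMBP window had one at -9 to -2. The MCM10 window and the other windows of MCM7 and MCMBP held none of these words, which says only that these letters are not there. The CCAAT box (CCAAT), bound by NF-Y, was found in 7 of the 10 windows, from 5 members, against 34.6% of all windows. The GC box (GGGCGG), bound by SP1, was found in 8 of the 10, from 6 members, against 45% of all windows. The CHR words TTTGAA and TTCGAA, of the element through which DREAM acts on late cell cycle genes, were found in 1 of the 10 windows, that of MCM6, where TTCGAA, a word that reads the same on both strands, lay at -246 to -241, against 16.4% of all windows. Most of the 10 windows were richer in G and C (range 48.7% to 75.7%) than the median of all windows (58.7%). The shares of all windows were not matched for this. These matches are letters in a window, and binding was not measured in these libraries.

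**Figure D1:**
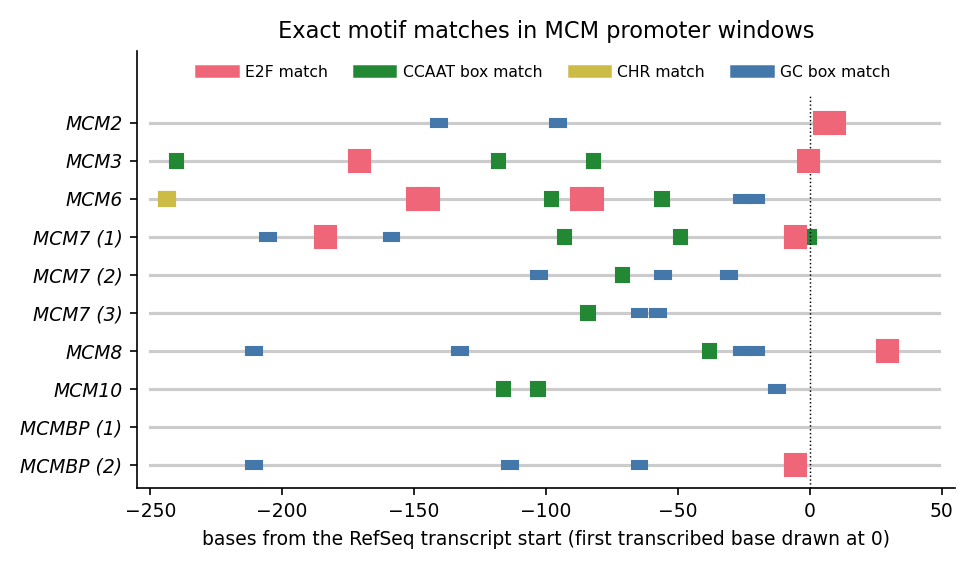
Exact motif matches in the 10 promoter windows of 7 MCM members. The x axis gives bases from the RefSeq start, the grey line is the window, and boxes mark the matched words, with numbers in brackets for genes with several starts. An E2F match lies at or beside the start in MCM2, MCM3, MCM7 and MCMBP; MCM3 and MCM7 have another far upstream (-174 to -167 and -187 to -180), those of MCM6 lie from -152 to -79, and that of MCM8 lies at 27 to 34.

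The levels were deposited as log2 FPKM, a scale that divides the fragments of a gene by its length and by the size of the library, so different genes can be compared. Values from the 3 libraries had nearly the same distribution, and single values recurred across libraries in different genes. The FPKM may thus have been adjusted further than by gene length and library size. With such a match, a change shared by most genes could not be seen. Read counts were not given, and the depth of the libraries is unknown. The targeted gene E2F1 stood at 10.6 FPKM in each control and at 1.68 FPKM in siE2F1 (log2 fold change -2.12 ± 0.0605 SE, limma adjusted p = 0.0311), which checks the labels. That call was lost with a pseudocount of 0.1 FPKM (adjusted p = 0.0601) and with no filter on low genes (adjusted p = 0.159). The E2F1 controls were only 0.00256 apart on log2(FPKM + 1), so the SE of E2F1 rests mostly on the spread of other genes. Of 9 markers of luminal prostate cells, 7 were at 1 FPKM or more in every library. The 9 summed to 812 FPKM in control 0, to 825 FPKM in control 1 and to 885 FPKM in siE2F1. The androgen-driven kallikreins KLK2 and KLK3 stayed below 0.5 FPKM in each library. Fibroblast markers summed to at most 1.74 FPKM and the leukocyte marker PTPRC to at most 1.15 FPKM, and the 1 basal marker listed, KRT14, was listed at 0 in all libraries.

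Every one of the 9 MCM genes was lower in the siE2F1 library than in either control, and none of their control and siE2F1 values overlapped. Across all 14401 genes tested, 39.7% lay below both controls and 43.7% above both. The median log2 fold change of the ring subunits MCM2-7 was -0.60, and that of all 9 members was -0.58, where the median over all genes tested was 0.01. These values come from log2(FPKM + 1), where low genes appear to differ less than they do in FPKM. The largest differences were in MCM3 and MCM10, and the smallest in MCM6 and MCMBP. In bulk RNA, fewer cells in the phase that uses these genes and less RNA per cell cannot be told apart.

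Whether these differences pass a test depended on which genes shared the fit. With limma over all genes tested, 0 of the 9 members were called at an adjusted p of 0.05, against 0.104% of all genes called lower and 0.312% called higher. Their adjusted p ranged from 0.105 to 0.142. At an unadjusted p under 0.05, all 9 were lower, against 14.9% of all genes. The fit over all genes includes 473 small nucleolar, small nuclear and micro RNA genes, and for 216 of them (45.7%) the controls were 1 log2 unit or more apart. This held for 0.337% of the remaining genes. Without small RNA genes, 6 of the 9 members were called lower (MCM2, MCM3, MCM4, MCM5, MCM8 and MCM10), with adjusted p from 0.0232 to 0.0432. In that fit 6.36% of 13928 genes were called lower and 4.17% called higher. MCMBP, MCM6 and MCM7 did not pass there, at adjusted p of 0.0577, 0.0641 and 0.0646. The spread in both fits comes from 1 residual degree of freedom between the controls, and the siE2F1 library is assumed to vary as they do.

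**Figure D2:**
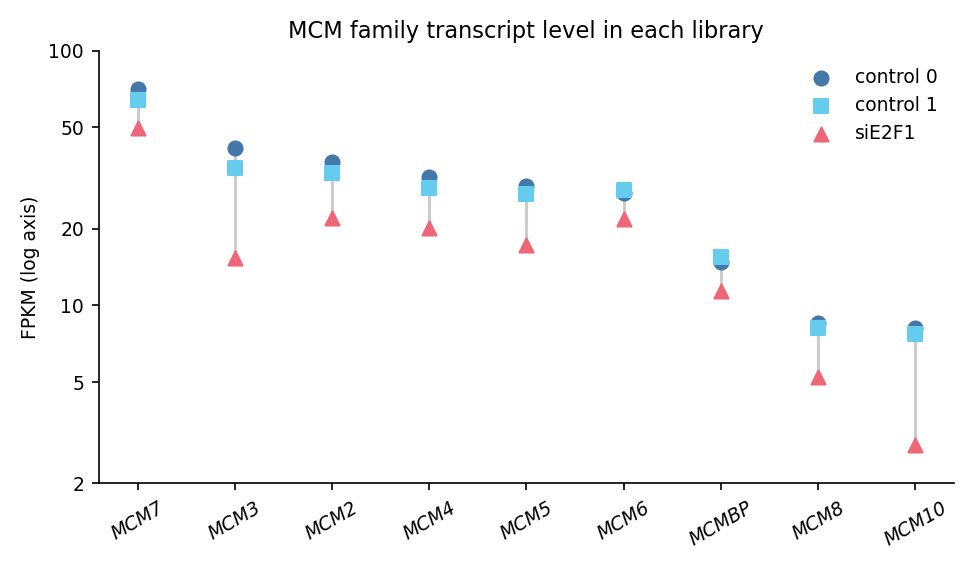
FPKM of the 9 MCM genes on a log axis, ordered by the mean of the controls, with 1 point per library. The siE2F1 triangle lies below both controls for each gene, and its gap is widest for MCM3 and MCM10.

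MCM3, a ring subunit that sits beside MCM5, was at 41.3 and 34.8 FPKM in control 0 and 1 and at 15.4 FPKM in siE2F1. The siE2F1 level was 40.4% of the control mean, and the controls (38.1 ± 4.64 FPKM, SD, n = 2) also lay farther apart on the log2 scale than for any other member. Its log2 fold change was -1.25 ± 0.141 SE, with a 95% interval of -1.73 to -0.77. That is 5.15 times the difference between the controls. MCM3 ranked 182nd from the lowest log2 fold change among 14401 genes, and 42nd among the 13928 without small RNA genes.

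MCM5, whose junction with MCM2 is the gate through which DNA enters the ring, had control levels of 29.6 and 27.5 FPKM and 17.3 FPKM in siE2F1. The siE2F1 level was 60.5% of the control mean, the second lowest share among the ring subunits. MCM2, on the other side of that gate and also a histone chaperone, had control levels of 36.7 and 33.0 FPKM and 21.99 FPKM in siE2F1 (63.1% of the control mean). Their log2 fold changes were -0.69 and -0.64, with intervals that overlap widely (-0.96 to -0.42 and -0.97 to -0.31).

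MCM4, MCM6 and MCM7 form a stable subcomplex with helicase activity of its own. MCM4, a target of the DBF4-dependent kinase, had control levels of 31.9 and 28.9 FPKM and 20.2 FPKM in siE2F1 (66.4% of the control mean, log2 fold change -0.57). MCM6 had control levels of 27.5 and 28.3 FPKM and 21.9 FPKM in siE2F1. Its log2 fold change of -0.34 was the smallest of the family (78.2% of the control mean, 95% interval -0.55 to -0.13). MCM7, the most abundant member in each library, had control levels of 70.6 and 63.8 FPKM and 49.7 FPKM in siE2F1 (73.9% of the control mean). The MCM7 difference of -0.43 was 2.97 times the difference between the controls, the lowest ratio in the family. The intervals of MCM3 and MCM6 do not overlap, although a test of the difference between subunits was not made.

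The ring is built from equal numbers of its subunits, yet the transcript levels were uneven. MCM7 made up 29.7% and 29.5% of the summed MCM2-7 FPKM in control 0 and control 1, and 33.9% in siE2F1. The share of MCM3 was 17.4% and 16.1% in the controls and 10.5% in siE2F1, which took it from the second highest of the ring subunits to the lowest. The share of MCM6 went the other way, from 11.6% and 13.1% to 14.9%. MCM2 (15.4%, 15.3% and 15.02%) and MCM4 (13.4%, 13.4% and 13.8%) kept nearly the same share. MCM5 made up 12.4%, 12.7% and 11.8% of the sum. The sum itself was 237.7, 216.4 and 146.4 FPKM, so siE2F1 held 64.5% of the control mean. The ratio of the highest to the lowest subunit was 2.56 and 2.32 in the controls and 3.24 in siE2F1.

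In the controls the order of levels from the top was MCM7, MCM3, MCM2, MCM4, MCM5, MCM6, MCMBP, MCM8 and MCM10. The control values of neighbours overlapped for MCM3 and MCM2, MCM4 and MCM5, MCM5 and MCM6, and MCM8 and MCM10, so their order is not fixed beyond the spread. MCM7 stood apart from MCM3, MCM2 from MCM4, MCM6 from MCMBP, and MCMBP from MCM8. In siE2F1 the order among the ring subunits was MCM7, MCM2, MCM6, MCM4, MCM5 and MCM3, so MCM3 lay below subunits such as MCM4 that it exceeded in both controls.

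MCM10, which binds the CMG complex and single-stranded DNA and recruits polymerase alpha, had control levels of 8.19 and 7.72 FPKM and 2.82 FPKM in siE2F1. As a ratio of FPKM this was the largest difference of the family, 2.82-fold lower than the control mean against 2.48-fold for MCM3. On the log2(FPKM + 1) scale its log2 fold change was -1.23 ± 0.0728 SE (95% interval -1.48 to -0.98), 16.3 times the difference between the controls. MCM10 was at 23.9% and 24.9% of the median ring subunit in the controls and at 13.4% in siE2F1.

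MCM8, a relative of the ring subunits that works in homologous recombination, had control levels of 8.57 and 8.13 FPKM and 5.25 FPKM in siE2F1 (62.9% of the control mean, log2 fold change -0.58). Its level was 25.0%, 26.3% and 25.0% of the median ring subunit in control 0, control 1 and siE2F1, with the siE2F1 share within the range of the controls. MCMBP, which replaces MCM2 in complexes with the other subunits and helps to keep newly made subunits stable, had control levels of 14.8 and 15.4 FPKM and 11.4 FPKM in siE2F1 (75.4% of the control mean, log2 fold change -0.38). Relative to the median ring subunit MCMBP stood at 43.2% and 49.9% in the controls and 54.2% in siE2F1.

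The controls themselves were not level for this family. Control 1 was below control 0 for 7 of the 9 members, with MCM6 and MCMBP the exceptions. The median difference of control 1 from control 0 was -0.14 for MCM2-7 and -0.10 for all 9, against 0.002 over all genes tested. Against control 0 alone the median log2 fold change of MCM2-7 was -0.67, and against control 1 alone it was -0.53. The siE2F1 difference had the same sign against each control for all 9 genes.

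**Figure D3:**
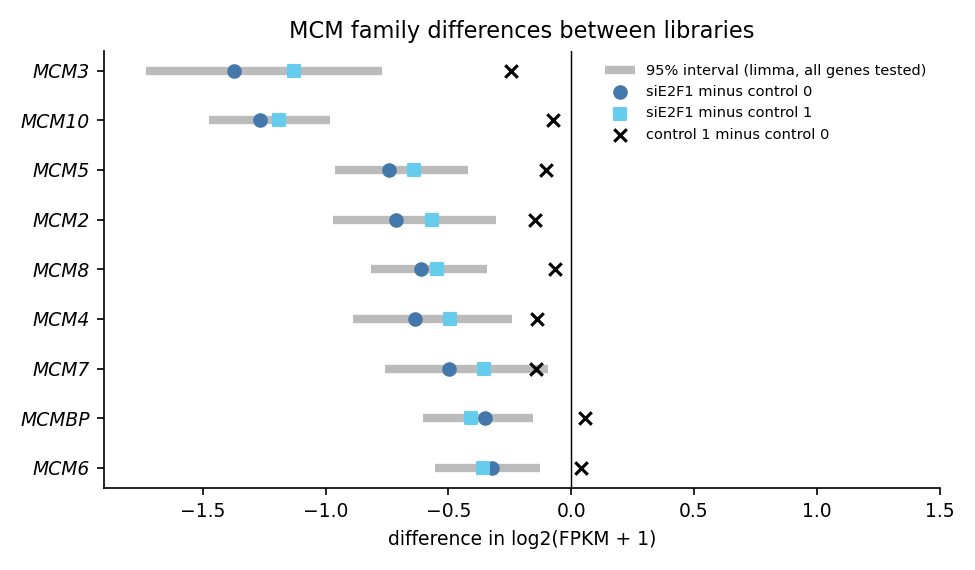
Differences in log2(FPKM + 1) for each MCM gene: siE2F1 minus each control, and control 1 minus control 0 (crosses), with the 95% limma interval of the mean difference as a grey bar. All siE2F1 differences lie between -1.37 and -0.32, and the crosses between -0.24 and 0.06.

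**Figure D4:**
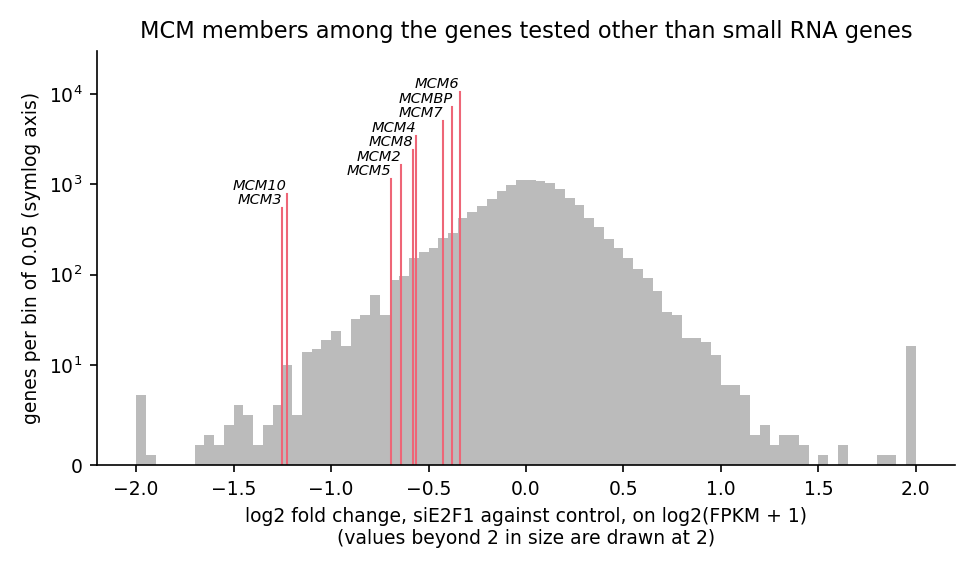
Histogram of the log2 fold changes of 13928 genes tested other than small RNA genes, in bins of 0.05 on a symlog axis, with red lines at the 9 MCM members. MCM3 and MCM10 lie in the sparse lower tail, and MCM6 lies closest to the bulk.

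Genes that load, activate and accompany the helicase were taken from 4 lists, of which 31 of 32 genes were found. None was called over all genes tested, where 23 of the 31 were lower at an unadjusted p under 0.05, against 14.9% of all genes. Without small RNA genes 13 were called lower, against 6.36% of all genes in that fit, and none was called higher, against 4.17%. Of the 31 genes, 28 were below both controls, against 39.7% of all genes tested, with a median log2 fold change of -0.49, against 0.01.

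Genes of origin licensing differed among themselves. All 9 licensing genes were measured, 8 were below both controls (39.7% of all genes tested), and the list median was -0.32. In the fit without small RNA genes 3 were called lower (ORC6, CDC6 and CDT1), against 6.36% of all genes. CDT1, which brings MCM2-7 to the origin, had control levels of 15.1 and 13.9 FPKM and 8.27 FPKM in siE2F1 (log2 fold change -0.74). ORC6, the smallest origin recognition subunit, was at 16.0, 15.7 and 10.2 FPKM in the same order (-0.59). CDC6, the ATPase that completes loading, had a log2 fold change of -0.55. The other origin recognition subunits below both controls did not pass, with a log2 fold change of -0.55 for ORC1, -0.32 for ORC3, -0.08 for ORC2 and -0.06 for ORC5. GMNN, geminin, which inhibits CDT1, was at -0.06. ORC4 was above both controls, at 41.5, 39.8 and 54.2 FPKM (adjusted p = 0.05002 without small RNA genes, just above the threshold). The licensing genes other than CDT1 and ORC6 were named with their values known.

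The partners of the active helicase were below the controls throughout the list. All 11 measured genes of the CMG and firing list were below both controls (39.7% of all genes tested), and the list median was -0.55. Of these genes, 8 were called lower without small RNA genes, against 6.36% of all genes. GINS2, a subunit of the GINS complex, had 21.99 and 21.9 FPKM in the controls and 9.11 FPKM in siE2F1, and its log2 fold change of -1.18 came close to those of MCM3 and MCM10. CDC45, the other CMG component, was at 13.9, 12.9 and 7.29 FPKM (-0.79). The kinase that phosphorylates MCM2, MCM4 and MCM6 was lower in both of its parts, with -0.54 for CDC7 and -0.59 for DBF4, also chosen with their values known.

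The list of genes whose proteins travel with the helicase at the fork had 8 measured members and a median of -0.44. All 8 were below both controls (39.7% of all genes tested). In the fit without small RNA genes 2 were called lower (6.36% of all genes), while the other 6 did not pass. WDHD1 (AND-1), which links the helicase to polymerase alpha, was at 7.82, 8.15 and 5.28 FPKM (-0.52), and CLSPN, the checkpoint mediator claspin, at 4.96, 4.81 and 3.20 FPKM (-0.49).

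Relatives and partners of MCM8 lay on both sides of the controls. Of 3 genes, 1 was below both controls, 1 was above and 1 lay between, and none passed either fit. The median was -0.04. C17orf53 (HROB), which recruits MCM8 and MCM9, was at 1.88, 1.83 and 0.972 FPKM (-0.53). MCM9, the partner of MCM8 and a member of the same protein family, was at 4.22, 3.96 and 4.35 FPKM, with a log2 fold change of 0.07 and a 95% interval of -0.18 to 0.33. MCMDC2, an MCM-domain protein of meiosis, was at 6.71, 7.13 and 6.72 FPKM (-0.04, interval -0.28 to 0.21). MCMDC2 was named with its value known, and the difference between MCM8 and MCM9 was not tested.

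**Figure D5:**
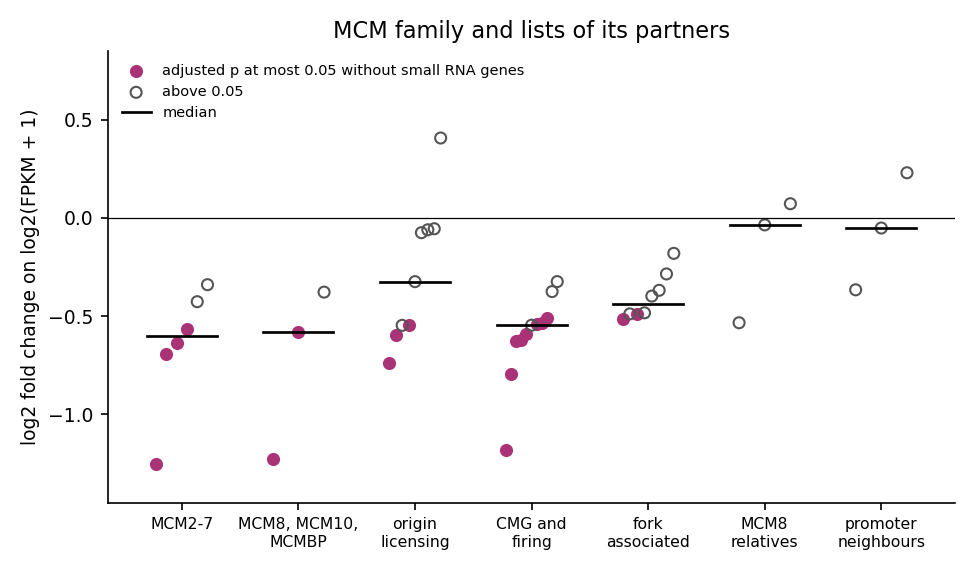
Log2 fold changes on log2(FPKM + 1) for MCM2-7, the other MCM members, the 4 partner lists and the promoter neighbours, with 1 point per gene and a bar at the median. Filled points have an adjusted p of at most 0.05 in limma without small RNA genes. The median is -0.60 for MCM2-7, -0.05 for the promoter neighbours and -0.04 for the MCM8 relatives.

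Some members share their start region with a gene read in the other direction, and the values of these neighbours can be set beside theirs. In GENCODE 29 (GRCh38) the MCM4 start lies 2 bases from that of PRKDC, the catalytic subunit of DNA-dependent protein kinase. PRKDC had control levels of 27.8 and 21.7 FPKM and 28.95 FPKM in siE2F1, above both, while MCM4 was below both. The start of MCM8 lies 94 bases from that of TRMT6, a tRNA methyltransferase subunit, which was at 9.75, 9.16 and 7.11 FPKM (log2 fold change -0.37, adjusted p = 0.0664 without small RNA genes). The starts of MCM7 and AP4M1, an adaptor subunit of vesicle transport, lie 391 bases apart and the genes overlap by 392 bases. AP4M1 was at 9.57, 9.86 and 9.33 FPKM (-0.05). Strand is not kept by this library kit, and reads in that overlap cannot be given to one gene. None of these neighbours passed either fit, and differences between a member and its neighbour were not tested.

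MCM7 also hosts a cluster of microRNA genes, MIR106B, MIR93 and MIR25, which lie within its introns in GENCODE 29 on the same strand. Their main mature products are shown from RefSeq (GRCh38.p14) with the seed, bases 2 to 8, in capitals, because the seed groups them: miR-106b-5p and miR-93-5p share the seed AAAGUGC, and miR-25-3p has AUUGCAC. They lie at chr7:100094043-100094063, chr7:100093815-100093837 and chr7:100093571-100093592 on the minus strand.
miR-106b-5p: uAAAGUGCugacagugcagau
miR-93-5p: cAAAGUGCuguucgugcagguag
miR-25-3p: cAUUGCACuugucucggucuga

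The listed values of the 3 microRNA genes lay on both sides of the controls. MIR25 had control levels of 203.2 and 194.3 FPKM and 108.3 FPKM in siE2F1. MIR93 had control levels of 99.4 and 72.1 FPKM and was listed at 0 in siE2F1. MIR106B was listed at 0 in both controls and at 24.1 FPKM in siE2F1. It was the only one of the 3 that limma called over all genes tested (adjusted p = 0.0165). Its controls, tied at 0, give no spread of their own, so that call rests on the spread of other genes. The kit is made for long RNA, so these values are not levels of the mature microRNAs, and fragments of the MCM7 precursor cannot be told apart from those of the microRNA genes.

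The 5 genes outside the family whose values over the 3 libraries lay nearest to the mean profile of MCM2-7 were BAHCC1, NCAPH, BCL2L11, REEP1 and PCNA-AS1. Their distances from it, on log2(FPKM + 1) centred on the controls, ran from 0.00423 to 0.0144. With 3 libraries, a profile has only the step between the controls and the step to siE2F1, so many genes can come close. NCAPH, a condensin subunit, had 13.4 FPKM in control 0, 12.1 in control 1 and 7.70 in siE2F1. PCNA-AS1 was at 166.9, 151.4 and 100.3 FPKM, and without strand its reads cannot be told from those of PCNA, the replication clamp.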

How the data were processed

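RNA was sequenced from 3 LNCaP-abl libraries, grouped by their titles. The authors deposited log2 FPKM per gene. TopHat2 2.0.4 and Cufflinks 2.0.2 with the build hg19 are listed in the submitters' processing notes; for the annotation and scaling, nothing is given in the sources used here. The lowest deposited value is log2 of 0.1, so FPKM was computed as 2 to the deposited value minus 0.1. Whether 0.1 had been added or set as a minimum is not given; if it was a minimum, each FPKM here is 0.1 too low, and a gene listed at 0 may be at up to 0.1 FPKM. The libraries shared a median log2 value of 1.58, and their sorted values differed by at most 0.0653. Single values also recurred across libraries in different genes, such as 22.48246 FPKM for AFF1 in control 0, ABLIM1 in control 1 and ACOT8 in siE2F1. Quantile normalization before deposit would give both, and 1 scaling factor per library need not. Whether that step was taken is not given, so each FPKM may be a value assigned by rank. Genes that averaged 1 FPKM or more were fitted as log2(FPKM + 1) in R 4.3.3 with limma 3.58.1 (mean-variance trend, two-sided, Benjamini-Hochberg adjustment at 0.05); prior degrees of freedom were 1.69, and 3.19 without small RNA genes (symbols beginning with RNU, SCARNA, SNOR or MIR, other than host genes). With 2 libraries against 1, no permutation test could reach 0.05. No list was tested as a set. A gene of the partner lists is not reported here.

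The members, lists and rules were chosen with earlier results of these data known. Named were E2F1, the members, the 2 genes of each partner list farthest from the nearer control where none was called, the neighbours, the 5 nearest profiles and cell type markers. Alternatives were other pseudocounts, filters, scalings and variance models, and leaving out each control.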

Additional observations from a re-analysis of the deposited data

How the results depend on the processing

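All 9 members stayed below both controls under each alternative with both controls, and below the remaining one when a control was left out. All 81 member values under alternatives were negative, but they are not separate checks. Filters, the variance model and leaving out small RNA genes do not alter a member's log2 fold change. Quantile normalization hardly moved it. A pseudocount cannot change its sign against a control, and leaving out a control only gives the difference from the other. The number of members called lower was 0 in the fit of all genes and 6 without small RNA genes, and no member was called under the other tested alternatives. The E2F1 call was lost with no filter (-2.12, adjusted p = 0.159) and with a pseudocount of 0.1 FPKM (-2.59, adjusted p = 0.0601). The median log2 fold change of MCM2-7 ran from -0.67 to -0.53, both ends coming from the fits with 1 control, which have no test. The MCM10 difference was -1.46 with a pseudocount of 0.1 FPKM. Genome-wide, limma called 15 genes lower and 45 higher over all genes tested; it called 11 and 7 with a pseudocount of 0.1, 0 and 0 with no filter (4862 genes at an unadjusted p under 0.05), 18 and 26 at a mean of at least 5 FPKM, and 886 and 581 without small RNA genes. No paired analysis was possible because there is 1 siE2F1 library, whose title gives no replicate number to match it with a control. Depth is unknown, so the part of counting error in these differences was not tested.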
